A study of Mus musculus with 7 samples.

Results

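The SLC25 family was followed here in 7 bulk samples of mouse prostate tumour. Its members were all array probes whose gene symbol in the platform annotation was Slc25a and a number: 76 of the 45128 probes, which belonged to 46 genes. No measured value entered that choice. Host mice were athymic nude (NU/J), a strain without a functional thymus that keeps its myeloid cells, and each carried an allografted NPK tumour. Both groups carry the same NPK tumour type. Over 5 days of daily dosing 3 tumours received vehicle and 4 received RAPPD, and all were taken on the fifth day (both groups are labelled SHORT). RAPPD is not written out in the labels, and published work uses it for a pairing of the mTOR inhibitor rapamycin with an inhibitor of the kinase MEK. Whether tumours within a group had separate donors, and the age of the mice, were not given in the sources used here. The p-values therefore cover only the spread among these 7 samples, which may be partly technical.

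SLC25 proteins sit in the inner membrane of the mitochondrion, with a few exceptions in peroxisomes or the outer membrane. They exchange nucleotides, phosphate, carboxylates, amino acids, carnitine esters, cofactors and iron between the matrix and the cytosol. Many are made in every tissue, while some mark muscle, liver, testis or red cell precursors. They are imported through the TIM22 route, in which small chaperones of the intermembrane space hold the unfolded carrier.

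Few SLC25 transcripts passed the test between RAPPD and vehicle tumours. Of the 46 genes, 30 had a probe above background on at least 3 arrays and were tested by limma with Benjamini-Hochberg adjustment over 11085 genes. The carrier gene Slc25a16 and the orphan carrier gene Slc25a53 rose, and the ADP/ATP carrier gene Slc25a5, Slc25a45 and the liver-enriched Slc25a47 fell. The other 25 did not pass an adjusted p of 0.05. The 5 calls are 16.7% of the members tested, against 24.1% of all genes. Over all genes tested, 11% were called higher and 13.1% lower, so 2 and 3 of 30 members (6.67% and 10%) did not stand above that background. With single arrays left out the number higher was 1 (without vehicle 1) to 3, and the number lower 0 (without RAPPD 2, 3 or 4) or 1 (without vehicle 2) to 3. Non-overlapping groups were found for 9 of the 30 members, against 34.7% of all genes. A difference of at least 2-fold was seen in 1 member, Slc25a16, against 13.6% of all genes. It was also called, and 12.1% of all genes tested were both called and at least 2-fold apart. An unadjusted p under 0.05 was found for 11 members (36.7%) and 37.6% of all genes. The median difference (RAPPD minus vehicle, log2 of normalised intensity) was -0.04 over the members and -0.01 over all genes, and the median size of the difference, without its sign, was 0.34 and 0.36.

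**Figure D1:**
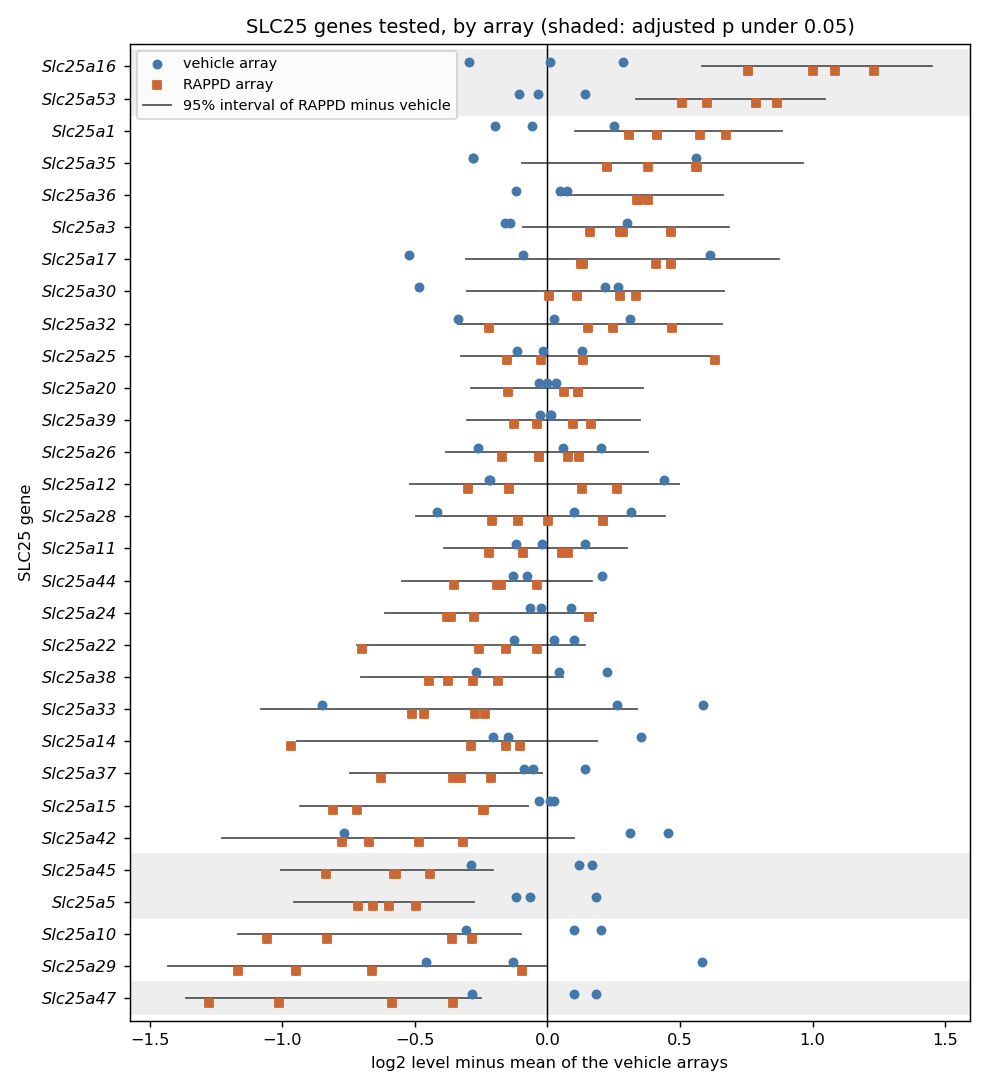
Level of each of the 30 tested SLC25 genes on each array, as log2 level minus the mean of the 3 vehicle arrays (horizontal axis), with genes ordered by RAPPD minus vehicle. Circles are vehicle arrays, squares RAPPD arrays, lines the 95% interval of the difference from limma, and shading marks the 5 called genes; Slc25a16 lies farthest to the right at 1.02 and Slc25a47 farthest to the left at -0.81.

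All 7 arrays carried similar signal, with 20323 to 21330 of 45128 probes above background and 41 to 47 of the 76 SLC25 probes. Vehicle 1 and vehicle 2 were each the only array of this series on their chip, while vehicle 3 lay on the same chip as all 4 RAPPD arrays. With chip as a fixed block, the RAPPD arrays are set against vehicle 3 alone. In that fit limma called 0 of the 30 SLC25 genes, while 3.42% of all genes were called higher and 5.94% lower (9.36% either way). An unadjusted p under 0.05 was found there for 10 members, or 33.3%, and for 28.8% of all genes. With chip as a random block, which uses all arrays, 2 members were higher and 2 lower, against 8.55% and 11.4% of all genes (19.9% either way). Marker transcripts of other cell types also differed between the groups. Without a chip block, 11% of all genes tested were called higher and 13.1% lower. Of 7 red blood cell transcripts tested, 5 rose, with list means of 9.16 to 9.74 on the vehicle arrays and 10.32 to 11.80 on the RAPPD arrays. Klf1, Gata1 and Epb42 did not pass the filter on dim probes. Of 11 neutrophil transcripts 9 rose (means 7.01 to 8.82 and 9.62 to 11.36), and of 7 fibroblast transcripts 3 rose (9.49 to 10.82 and 10.80 to 11.94). Of 5 epithelial transcripts tested from a list of 13, the luminal keratins Krt8 and Krt18 fell and the means were 8.48 to 9.86 and 7.14 to 8.73. With chip as a fixed block the counts were 3 red blood cell and 2 neutrophil transcripts higher, 0 fibroblast transcripts higher and 0 epithelial transcripts lower. Krt8 was bright on every array (11.55 to 14.32), whereas Epcam, Cldn4, Krt5, Trp63 and the prostate genes Pbsn and Tmprss2 did not pass the filter. Of 6 macrophage transcripts Mrc1 fell by 1.22 ± 0.30 (limma, adjusted p = 0.0198; list means 10.22 to 10.93 and 9.91 to 10.56). Of 6 endothelial transcripts Tek and Vwf fell, with differences of -0.84 ± 0.16 and -0.79 ± 0.18 (adjusted p = 0.0065 and 0.0161; list means 7.69 to 7.94 and 7.54 to 7.93). The fixed chip fit, with vehicle 3 as the only control, called Tek and the muscle enolase gene Eno3 but not Mrc1 or Vwf. Their differences there were -0.98, -1.51, -1.53 and -0.63. Adgre1 of the macrophage list and Lum of the fibroblast list were called lower there (-1.75 and -1.45). Atp2a1 of the skeletal muscle list was called higher (1.41). Without a chip block these genes had -0.89, -0.40 and -2.13 and were not called. Of 3 adipocyte transcripts tested, limma called 0 (1 had an unadjusted p under 0.05). Vehicle 2 had a skeletal muscle list mean of 11.74, against 5.59 to 6.21 on the other arrays, and of 9 muscle transcripts Eno3 fell by 1.84 ± 0.34 (adjusted p = 0.00573). The part of these lists in the SLC25 differences was not tested, and in bulk RNA fewer cells of a type and less RNA per cell cannot be told apart.

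Promoter windows are shown for the called member with the smallest adjusted p in each direction, Slc25a16 among those that rose and Slc25a5 among those that fell. Both are RefSeq sequences of build GRCm38.p6, from 250 bases before to 50 after the annotated gene start, written 5′ to 3′. The Slc25a16 window is chr10:62920383-62920682, plus strand, and the Slc25a5 window is chrX:36795347-36795646, plus strand. Capitals mark a match to any of 6 short motifs that were searched on both strands and are named below.
Slc25a16: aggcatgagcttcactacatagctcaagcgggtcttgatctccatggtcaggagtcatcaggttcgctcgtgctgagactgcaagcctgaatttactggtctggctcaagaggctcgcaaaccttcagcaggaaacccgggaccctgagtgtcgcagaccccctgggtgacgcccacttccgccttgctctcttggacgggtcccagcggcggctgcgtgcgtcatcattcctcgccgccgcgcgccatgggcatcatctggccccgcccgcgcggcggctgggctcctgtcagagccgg
Slc25a5: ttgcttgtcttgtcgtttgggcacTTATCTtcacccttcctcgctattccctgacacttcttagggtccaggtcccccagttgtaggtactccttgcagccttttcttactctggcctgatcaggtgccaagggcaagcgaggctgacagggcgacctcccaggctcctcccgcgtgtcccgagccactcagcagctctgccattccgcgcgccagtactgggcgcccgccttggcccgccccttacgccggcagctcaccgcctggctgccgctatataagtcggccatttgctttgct
The Slc25a16 window held no match, and the capitals in that of Slc25a5 are 1 match to the GATA letters, on the reverse strand.

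Of the 46 SLC25 genes, 36 had a window in the RefSeq table. The E-box letters CACGTG lay in the windows of 7 of these 36 genes (19.4%), against 8.09% of the 27025 genes with a window. They were those of Slc25a1, Slc25a13, Slc25a14, Slc25a15, Slc25a31, Slc25a33 and Slc25a36, and no called member was among them. The letters CCAAT, known as the site of the factor NF-Y, were in 19 windows (52.8%, against 41.1%). The GATA letters AGATAA were in 3 windows (8.33%, against 12.7%), those of Slc25a5, Slc25a22 and Slc25a53. The composite element of ATF4 and C/EBP factors, with the letters TGATGCAA, was in 0 of the 36 windows, against 1.03% of all genes. The forkhead letters TGTTTAC were likewise in 0 windows, against 4.05%, and the NRF1 element, known from many mitochondrial genes, was in 0, against 1.07%. Each match is only a description of the letters. No SLC25 window held matches that overlapped, and a gene with several annotated starts was counted once.

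Carriers of adenine nucleotides, phosphate and coenzyme A had a called gene in each direction. Of the 11 genes with this role, 7 were tested, 1 rose and 1 fell, against 11% of all genes higher and 13.1% lower. These counts are near that background and are no result about these carriers. Slc25a16 is related to the coenzyme A carrier of yeast. Its levels were 8.14, 7.84 and 8.42 on vehicle arrays 1 to 3 and 9.36, 9.13, 9.22 and 8.89 on RAPPD arrays 1 to 4. Every RAPPD value lay above every vehicle value. Slc25a16 rose by 1.02 ± 0.19 (log2 ± SE, 4 RAPPD and 3 vehicle arrays), or 2.03-fold (limma, adjusted p = 0.00619). Its call held with each array left out in turn (adjusted p 0.00541 to 0.0259). In the fixed chip fit the difference was 0.73 ± 0.24, which was not called (adjusted p = 0.108).

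Slc25a5 encodes an ADP/ATP carrier of proliferating cells, which exchanges ADP and ATP across the inner membrane of the mitochondrion. Its levels were 13.95, 14.20 and 13.90 on vehicle arrays 1 to 3 and 13.52, 13.42, 13.30 and 13.36 on RAPPD arrays 1 to 4. The groups did not overlap. Slc25a5 fell by 0.62 ± 0.15 (log2 ± SE), or 1.53-fold (limma, adjusted p = 0.0183). The call was lost without vehicle 2 (-0.52, adjusted p = 0.0558), without RAPPD 2, 3 or 4 (-0.62, -0.58 and -0.60, adjusted p = 0.051, 0.0526 and 0.051) and in the fixed chip fit (-0.50 ± 0.19, adjusted p = 0.153). The single probe of Slc25a4, the ADP/ATP carrier of heart and skeletal muscle, was above background on 0 of 7 arrays. Its intensities were -18.5, -1.80 and -0.138 on vehicle arrays 1 to 3 and -8.51, -12.3, -13.7 and 1.13 on RAPPD arrays 1 to 4. Vehicle 2 was at background as well, where the muscle actin gene Acta1 reached 14.93 on the log2 scale.

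The other carriers of this role were not called by limma. The phosphate carrier gene Slc25a3 had a difference of 0.30 ± 0.17 (adjusted p = 0.245), and its second probe lay at -0.14. The difference by the brightest probe was -0.0048 with chip as a fixed block. The calcium-regulated ATP-Mg/phosphate carrier gene Slc25a25 had a difference of 0.15 ± 0.21, and its relative Slc25a24 of -0.22 ± 0.18 (adjusted p = 0.644 and 0.406). The probes of Slc25a24 did not settle its size. When limma was run on every probe, a second probe was called at -0.71 ± 0.18 (adjusted p = 0.0226 over 21249 probes) and another, at -0.52 ± 0.26, was not (adjusted p = 0.191). The coenzyme A carrier gene Slc25a42 had 6.32, 5.25 and 6.47 on vehicle arrays 1 to 3 and 5.53, 5.69, 5.34 and 5.24 on RAPPD arrays 1 to 4. Vehicle 2 was the only vehicle array within the RAPPD range. The difference of -0.56 ± 0.29 (limma, adjusted p = 0.196) became -0.95 without that array (adjusted p = 0.0142). This probe was dim (intensity 21.6 to 72.3), and the other Slc25a42 probes did not pass the filter. The peroxisomal member Slc25a17 had a difference of 0.28 ± 0.26 (adjusted p = 0.462). Slc25a23, the testis ADP/ATP carrier gene Slc25a31, and Slc25a41 did not pass the filter.

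**Figure D2:**
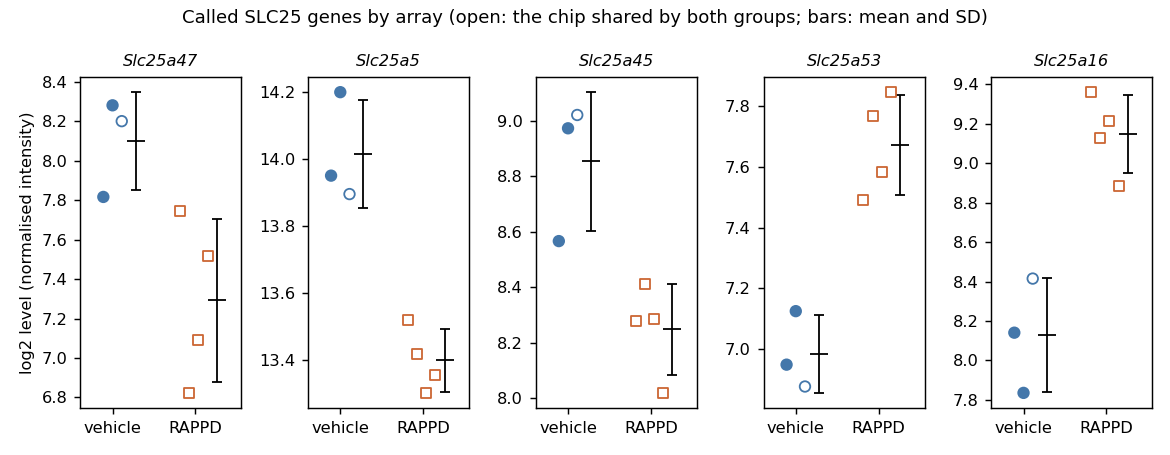
Log2 level of normalised intensity (vertical axes, a scale for each gene) of the 5 called SLC25 genes on each array, vehicle as circles and RAPPD as squares. Open symbols are the arrays of the chip that held both groups, and bars give the mean and SD of each group; no gene has a RAPPD value inside its vehicle range.

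Carriers of amino acids and carnitine had called genes in the lower direction. Of 13 genes 9 were tested, 2 fell and 0 rose, against 13.1% of all genes lower and 11% higher, with a median difference of -0.32 and a range of -0.81 to 0.04. A count of 2 of 9 is near that background and is no result about these carriers. The levels of Slc25a45 were 8.57, 8.97 and 9.02 on vehicle arrays 1 to 3 and 8.28, 8.41, 8.28 and 8.02 on RAPPD arrays 1 to 4. All RAPPD values were below the vehicle values. Slc25a45 fell by 0.61 ± 0.18 (log2 ± SE), or 1.52-fold (limma, adjusted p = 0.0365). The call held without vehicle 1 (-0.75, adjusted p = 0.0316) and was lost with any other array left out (-0.66 to -0.52, adjusted p up to 0.0984). In the fixed chip fit the difference was -0.77 ± 0.22 and not called (adjusted p = 0.0795).

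Slc25a47, which is mainly expressed in liver, had levels of 7.82, 8.28 and 8.20 on vehicle arrays 1 to 3 and 7.74, 6.82, 7.09 and 7.52 on RAPPD arrays 1 to 4. RAPPD 1 lay close to vehicle 1, and the groups did not overlap. Slc25a47 fell by 0.81 ± 0.24 (log2 ± SE), or 1.75-fold (limma, adjusted p = 0.043). Among fits that left out 1 array, the call held without RAPPD 1 (-0.96, adjusted p = 0.0209) and was lost in the other 6 (adjusted p 0.0582 to 0.12). Neither chip fit called it, with -0.91 ± 0.37 for the fixed block (adjusted p = 0.173) and -0.84 for the random block (adjusted p = 0.0625). Slc25a29, a carrier of basic amino acids, lies near Slc25a47 on chromosome 12 in the RefSeq table, with 1 microRNA gene between them. Its levels were 6.77, 6.44 and 7.48 on vehicle arrays 1 to 3 and 6.80, 5.73, 6.23 and 5.95 on RAPPD arrays 1 to 4. In both genes RAPPD 1 was the highest and RAPPD 2 the lowest of the RAPPD arrays. The order of RAPPD 3 and 4, and that of the vehicle arrays, differed between the genes, and their relation was not tested. The difference of Slc25a29 was -0.72 ± 0.31 and was not called (limma, adjusted p = 0.131), and it was called without RAPPD 1 (-0.93, adjusted p = 0.0495).

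The ornithine carrier gene Slc25a15 links the urea cycle and proline metabolism across the inner membrane. Its levels were 7.96, 7.92 and 7.97 on vehicle arrays 1 to 3 and 7.71, 7.71, 7.14 and 7.23 on RAPPD arrays 1 to 4. The groups did not overlap, with RAPPD 3 and 4 the lowest, and the difference was -0.50 ± 0.19 (limma, adjusted p = 0.0867, not called). Its second probe lay at -0.40. The aspartate/glutamate carrier gene Slc25a12, part of the malate-aspartate shuttle, had a difference of -0.01 ± 0.22, the glutamate carrier gene Slc25a22 of -0.29 ± 0.19 and the branched-chain amino acid carrier gene Slc25a44 of -0.19 ± 0.16 (adjusted p = 0.976, 0.299 and 0.417). The second probe of Slc25a12 lay at -0.28, and Slc25a22 was above background on 4 of 7 arrays. The carnitine/acylcarnitine carrier gene Slc25a20, which brings fatty acids into the matrix for oxidation, had a difference of 0.04 ± 0.14 (adjusted p = 0.88), with a 95% interval of -0.29 to 0.36. Its second probe past the filter lay at 0.34. Slc25a2, the second aspartate/glutamate carrier gene Slc25a13, Slc25a18 and Slc25a48 did not pass the filter.

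Carriers of carboxylates and the members that resemble uncoupling proteins had no called gene. Of 9 genes 6 were tested, with differences of -0.63 to 0.49. The citrate carrier gene Slc25a1, which exports citrate for lipid synthesis, had 10.02, 9.71 and 9.57 on vehicle arrays 1 to 3 and 10.07, 10.44, 10.18 and 10.34 on RAPPD arrays 1 to 4. The groups did not overlap, and the difference of 0.49 ± 0.17 missed the threshold (limma, adjusted p = 0.0683). It was called in 3 of 19 alternatives (0.48 with a background offset of 50, 0.38 in the submitters' processed values and 0.49 with a variance trend), and its second probe lay at 0.10. The dicarboxylate carrier gene Slc25a10 had 10.06, 10.16 and 9.65 on vehicle arrays 1 to 3 and 9.68, 9.60, 8.90 and 9.13 on RAPPD arrays 1 to 4. RAPPD 1 was above vehicle 3, so the groups overlapped, and the difference was -0.63 ± 0.23 (adjusted p = 0.0819). The oxoglutarate/malate carrier gene Slc25a11 had -0.04 ± 0.15 by its brightest probe (95% interval -0.39 to 0.30), and its other probes lay at 0.11 and 0.07. Slc25a14, Slc25a30 and Slc25a35 had differences of -0.38 ± 0.25, 0.18 ± 0.21 and 0.43 ± 0.23 (adjusted p = 0.303, 0.571 and 0.212). Slc25a35 stood at 6.20 on vehicle 2 and 5.36 on both other vehicle arrays, and without vehicle 2 it was called higher (0.71, adjusted p = 0.0283). Its probe was dim, with intensities of 25.0 to 58.6 against detection limits of 13.8 to 15.4. Slc25a21, Slc25a27 and Slc25a34 did not pass the filter.

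Carriers of cofactors, pyrimidine nucleotides and glutathione also had no called gene among 5 tested of 7. Slc25a33 and Slc25a36 supply the matrix with pyrimidine nucleotides for mitochondrial DNA and RNA synthesis, and Slc25a33 is known to respond to insulin-like growth factor signalling in cultured cells. The levels of Slc25a33 were 9.80, 10.13 and 8.69 on vehicle arrays 1 to 3 and 9.27, 9.03, 9.08 and 9.31 on RAPPD arrays 1 to 4. Vehicle 3 was lower than every RAPPD array, and vehicle 1 and 2 were higher than every RAPPD array. The difference was -0.37 ± 0.31 (limma, adjusted p = 0.422). It was -0.80 and called without vehicle 3 (adjusted p = 0.0152), and 0.48 ± 0.21 in the fixed chip fit (adjusted p = 0.19). No direction was settled for Slc25a33.

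The levels of Slc25a36 were 8.89, 8.69 and 8.86 on vehicle arrays 1 to 3 and 9.20, 9.16, 9.15 and 9.16 on RAPPD arrays 1 to 4. All RAPPD arrays were above the vehicle arrays, with a difference of 0.35 ± 0.14 (limma, adjusted p = 0.0951, not called). With limma run on every probe, a second probe was called at 0.88 ± 0.23 (adjusted p = 0.0231), and the remaining probe lay at -0.07. Over the 43 SLC25 probes past the filter, 3 were called higher and 4 lower in that fit, against 10.9% and 11% of all probes (22% either way). The folate carrier gene Slc25a32 had a difference of 0.16 ± 0.22 (adjusted p = 0.629, 95% interval -0.34 to 0.66), from 1 of its 3 probes. The S-adenosylmethionine carrier gene Slc25a26 had -0.0015 ± 0.17 (95% interval -0.38 to 0.38). Slc25a40 and the NAD carrier gene Slc25a51 did not pass the filter.

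**Figure D3:**
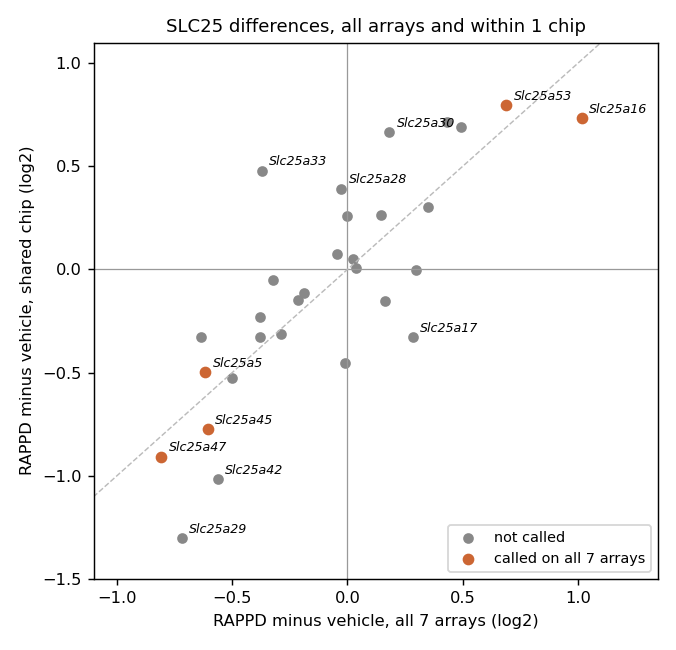
RAPPD minus vehicle for the 30 tested SLC25 genes on all 7 arrays (horizontal axis, log2) against the same difference in the fixed chip fit, where vehicle 3 is the control (vertical axis, log2). The dashed line marks equal values. Slc25a33 goes from -0.37 to 0.48 and Slc25a17 from 0.28 to -0.33. The groups of the 5 called genes did not overlap, so their sign could not turn against vehicle 3 alone.

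The orphan carrier gene Slc25a53, whose substrate is not known, was the other gene that rose. Its levels were 6.95, 7.12 and 6.88 on vehicle arrays 1 to 3 and 7.49, 7.77, 7.58 and 7.85 on RAPPD arrays 1 to 4. The groups did not overlap. Slc25a53 rose by 0.69 ± 0.16 (log2 ± SE), or 1.61-fold (limma, adjusted p = 0.0142), by 1 of its 2 probes, the other being above background on 0 arrays. The call was lost without vehicle 1 (0.67, adjusted p = 0.0511) and in the fixed chip fit (0.80 ± 0.22, adjusted p = 0.0748). Slc25a43, Slc25a54 and the outer membrane member Slc25a46 did not pass the filter.

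Neither iron carrier was called, while 5 of 7 tested red blood cell transcripts rose. The others, Tfrc and Rhag, had differences of -0.69 ± 0.36 and -0.10 ± 0.21 and were not called (limma, adjusted p = 0.196 and 0.771). Slc25a37 (mitoferrin-1) brings iron into the mitochondria of red cell precursors for haem synthesis, and Slc25a28 (mitoferrin-2) does so in other cells. The levels of Slc25a37 were 9.76, 9.53 and 9.56 on vehicle arrays 1 to 3 and 8.99, 9.29, 9.40 and 9.26 on RAPPD arrays 1 to 4. Every RAPPD array was below every vehicle array, with a difference of -0.38 ± 0.16 and a 95% interval of -0.74 to -0.02 (limma, adjusted p = 0.116, not called). That difference stayed below 0 in all 19 alternatives (-0.44 to -0.28) and was called in 1, the submitters' processed values. On the same arrays Alas2, the haem synthesis enzyme of red cell precursors, had 7.14, 5.45 and 6.40 on vehicle arrays 1 to 3 and 8.44, 11.12, 11.46 and 11.47 on RAPPD arrays 1 to 4. RAPPD 1 was the lowest RAPPD array for Alas2, Slc25a37 and Slc25a38, but not for Slc25a39, and it was the highest for Slc25a28. How these levels relate was not tested. The second Slc25a37 probe was above background on 0 of 7 arrays.

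Slc25a28 had 11.92, 12.13 and 11.40 on vehicle arrays 1 to 3 and 12.03, 11.71, 11.82 and 11.61 on RAPPD arrays 1 to 4. The groups overlapped, and the difference was -0.03 ± 0.21 (limma, adjusted p = 0.94, 95% interval -0.50 to 0.44), with 0.39 ± 0.23 on the shared chip. Slc25a38, the glycine carrier that supports haem synthesis, had 10.30, 10.12 and 9.81 on vehicle arrays 1 to 3 and 9.63, 9.70, 9.89 and 9.80 on RAPPD arrays 1 to 4. Vehicle 3 lay within the RAPPD range, and the difference was -0.32 ± 0.17 (adjusted p = 0.196), with its other probes at -0.23 and -0.12. Slc25a39, a glutathione carrier that is abundant in red cell precursors, had 10.22, 10.22 and 10.18 on vehicle arrays 1 to 3 and 10.17, 10.38, 10.08 and 10.31 on RAPPD arrays 1 to 4. Its difference was 0.02 ± 0.14 (limma, adjusted p = 0.92, 95% interval -0.30 to 0.35). The band 3 gene Slc4a1 and the alpha globin gene Hba-a1 rose by 2.94 ± 0.62 and 2.74 ± 0.36 (adjusted p = 0.0104 and 0.00113). Over all genes tested, 11% were called higher and 13.1% lower. Among 8 tested genes of haem synthesis and iron-sulphur assembly in every cell, the scaffold gene Iscu rose by 0.69 ± 0.15 (adjusted p = 0.0113) and Alad fell by 0.53 ± 0.16 (adjusted p = 0.0386). The fixed chip fit called neither gene (0.83 ± 0.20 and -0.53 ± 0.20, adjusted p = 0.0569 and 0.149). The call of Alad was also lost with chip as a random block (adjusted p = 0.0551) and without vehicle 1, vehicle 3 or RAPPD 2, 3 or 4.

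**Figure D4:**
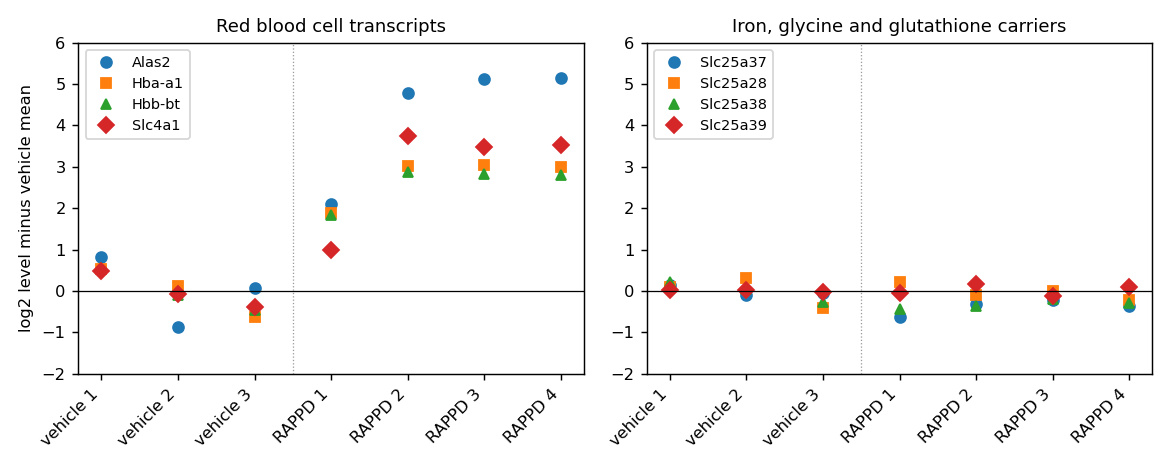
Log2 level minus the vehicle mean (vertical axes, same scale) on each array (horizontal axes) for 4 red blood cell transcripts on the left and 4 SLC25 carriers of iron, glycine and glutathione on the right. The level of Alas2 is 8.44 to 11.47 on the RAPPD arrays and 5.45 to 7.14 on the vehicle arrays. That of Slc25a37 is 8.99 to 9.40 on the RAPPD arrays and 9.53 to 9.76 on the vehicle arrays.

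Enzymes that make or use the carried solutes were set beside the carriers. Over all genes tested, 11% were called higher and 13.1% lower. Of 16 tested, 6 fell and 0 rose, with a median difference of -0.33, and 5 were lower in the fixed chip fit. The lists were chosen with earlier results of these data known, so their direction is no independent evidence. Mitochondrial Mthfd2 and Shmt2, which use the folate that Slc25a32 brings in, had differences of -3.40 ± 0.30 and -2.24 ± 0.29 and both fell (adjusted p = 0.000147 and 0.00107). The levels of Mthfd2 were 12.47, 12.58 and 11.54 on vehicle arrays 1 to 3 and 9.26, 8.54, 8.46 and 8.92 on RAPPD arrays 1 to 4. Every RAPPD value of Mthfd2 was below every vehicle value, while the RAPPD and vehicle values of Slc25a32 overlapped. Aldh18a1 of proline synthesis fell by 1.61 ± 0.17 (adjusted p = 0.000449), beside an uncalled -0.50 for the ornithine carrier. Acly, which splits the citrate that Slc25a1 exports, had -0.28 ± 0.16 (adjusted p = 0.231). The mitochondrial shuttle enzymes Got2 and Mdh2 had -0.39 ± 0.16 and -0.03 ± 0.16 (adjusted p = 0.106 and 0.909). The differences between an enzyme and its carrier were not tested.

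The import machinery of the carriers had 2 of 11 tested genes lower and 0 higher, against 13.1% and 11% of all genes. Its median difference was 0.17. The called genes encode small chaperones of the intermembrane space. Timm9 had 11.36, 11.44 and 11.68 on vehicle arrays 1 to 3 and 10.75, 10.64, 10.57 and 10.64 on RAPPD arrays 1 to 4. Its groups did not overlap, and it fell by 0.84 ± 0.15 (limma, adjusted p = 0.00466), a call that held in the fixed chip fit (-1.03 ± 0.18, adjusted p = 0.0273). Timm8a1 fell by 1.18 ± 0.18 (adjusted p = 0.00272), with -0.85 ± 0.20 and an adjusted p of 0.0554 on the shared chip. Timm10, the partner of Timm9 in the chaperone hexamer, had -0.16 ± 0.26 (adjusted p = 0.698). Of 7 tested relatives of the carriers under other symbols, the sideroflexin gene Sfxn2 fell by 0.50 ± 0.15 (adjusted p = 0.0464), a call that depended on the setting. It was lost in the fixed and the random chip fit (adjusted p = 0.266 and 0.0833), with a background offset of 50, with median scaling, with the mean of a gene's probes, with every probe fitted, and with any array but RAPPD 1 left out. The serine carrier gene Sfxn1 had -0.47 ± 0.17 (adjusted p = 0.0804).

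Of 10 tested genes listed for outer membrane pores and mitochondrial mass, 2 fell and 0 rose, against 13.1% and 11% of all genes. Whether these transcripts follow the amount of mitochondria in these tumours was not tested. The matrix chaperone gene Hspd1 fell by 0.95 ± 0.22 (adjusted p = 0.0159) and the ATP synthase gene Atp5b fell by 0.52 ± 0.14 (adjusted p = 0.029), the latter not called in the fixed chip fit (adjusted p = 0.178). The number lower was 1 without vehicle 1, vehicle 2 or RAPPD 2, 3 or 4. The median difference of the list was -0.28, with a range of -0.95 to 0.33. Only the respiratory chain genes Cox4i1 and Uqcrc2 and the ATP synthase gene Atp5a1 lay above 0 (0.29 ± 0.14, 0.10 ± 0.14 and 0.33 ± 0.28). Citrate synthase (Cs) had -0.06 ± 0.16, and 0 of these 4 were called. In the submitters' processed values 1 gene of the list was called higher.

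**Figure D5:**
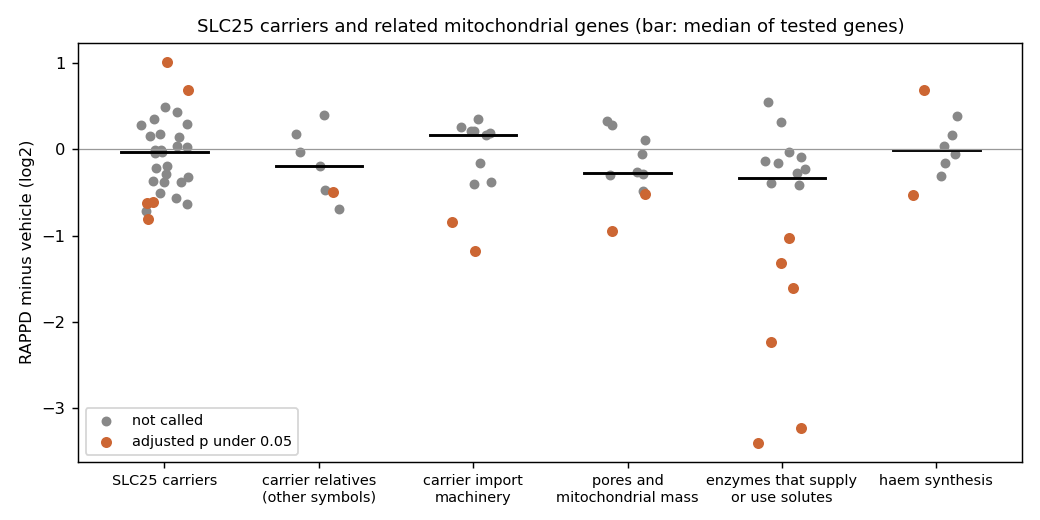
RAPPD minus vehicle (vertical axis, log2) for each tested SLC25 gene and each tested gene of 5 related lists (horizontal axis), with called genes coloured and a bar at the median of each list. The SLC25 genes lie between -0.81 and 1.02, while the enzymes that supply or use carried solutes reach -3.40.

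Of the 46 SLC25 genes, 16 gave no tested probe, and 7 of these had every probe at background on all arrays. The others were above background on 1 or 2 arrays. Slc25a18, a glutamate carrier gene, read 43.2 on vehicle 2, against a detection limit of 13.8 there, and 17.4 on RAPPD 1, against 14.7. A probe of Slc25a34, a muscle-expressed member, read 49.4 on vehicle 2, and its other 2 probes were at background. Slc25a46, which takes part in mitochondrial fission from the outer membrane, read 42.7 on RAPPD 1 and 15.7 on RAPPD 2, where the limits were 14.7 and 15.1. A probe at background says that no signal was measured there, not that the gene was silent.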

How the data were processed

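Amplified, biotin-labelled RNA of each of 7 tumours was read on 1 Illumina mouse bead array, per the labels' protocols. The deposited table held background-subtracted intensity on a linear scale, without detection p-values. BeadStudio and lumi are named, without versions or roles, in the submitters' processing notes. A second deposited table held the submitters' processed log2-like values, whose transform and centring stay unknown (array medians 8.021 to 8.025), and served as an alternative.

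Intensities were corrected with normexp (background mean 0, SD per array from the negative intensities, 8.41 to 9.35), given an offset of 16, quantile normalised and taken to log2. The detection limit of an array was the upper 0.05 tail of this background, and the 21249 probes over it on at least 3 arrays were kept. A gene was its brightest probe. Probes were named from the platform annotation (34776 with 1 symbol, 18 with several, 10334 unnamed here), and 99.8% of the named probes matched RefSeq genes of GRCm38.p6 by Entrez identifier, with 0 symbols changed.

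RAPPD was compared with vehicle by limma 3.58.1 (R 4.3.3), two-sided, over 11085 genes, with a threshold of 0.05 on the adjusted p. On simulated data for RAPPD minus vehicle (4 against 3 arrays, 11085 genes) the fit called 65% of 2-fold and 97% of 4-fold changes, and 5.81% of calls fell on unchanged genes. The members and lists were chosen with earlier results of these data known. By the rule for named genes, all 7 values were given for called members, Slc25a37, Slc25a28, Slc25a38, Slc25a39 and Slc25a4, and a difference for every other tested member, with at most 6 genes named from each related list. Further genes given with 7 values (such as Slc25a33, Slc25a42 and Alas2) were chosen after their values were seen. Chip was fitted as a block, fixed or random (statmod 1.5.0), and each array was left out in turn. The number of tumours limits the precision. The alleles of the NPK model are not reported here.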

Additional observations from a re-analysis of the deposited data

Results flagged for a closer look

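Slc25a36 on RAPPD 1 read 9.20, while the other 3 RAPPD arrays lay between 9.15 and 9.16. Its gap to the nearest array took up 0.878 of the range of the group, above Dixon's 95% critical value for 4 samples. The whole range was narrow, and chance sets apart about 1 in 20 such groups (30 groups were examined).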

How the results depend on the processing

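Of 19 alternatives, chip as a fixed block moved the SLC25 counts most, to 0 higher and 0 lower, in a fit that leaves 1 vehicle array. The submitters' processed values gave 4 higher. Leaving out each array gave 1 to 3 higher (1 without vehicle 1) and 0 to 3 lower (1 without vehicle 2, and 0 without RAPPD 2, 3 or 4). Over the 5 related lists, the 1 gene called higher became 3 with the submitters' values, 0 with chip as a fixed block and 1 to 2 with an array left out, and the 12 called lower became 7 with chip as a fixed block and 8 to 12 with an array left out. Over all genes, 1214 higher and 1457 lower became 379 and 659 with chip as a fixed block, 755 and 961 without vehicle 1, and 802 higher without RAPPD 2. Signs turned only for members not called in either fit. The groups of the members called in the main fit did not overlap. Leaving out an array, or keeping vehicle 3 as the only control, could therefore not turn their sign. With chip as a fixed block these were Slc25a3 (-0.0048), Slc25a11 (0.075), Slc25a17 (-0.33), Slc25a26 (0.26), Slc25a28 (0.39), Slc25a32 (-0.15) and Slc25a33 (0.48). With chip as a random block Slc25a26 became 0.085 and Slc25a28 0.11, with cyclic loess Slc25a28 became 0.0095, with median scaling Slc25a26 became 0.0094 and Slc25a28 0.0090, and with the mean of its probes Slc25a11 became 0.046. With an array left out, Slc25a11 ranged from -0.10 to 0.026, Slc25a12 from -0.12 to 0.21, Slc25a25 from -0.015 to 0.25, Slc25a26 from -0.13 to 0.10, Slc25a28 from -0.23 to 0.13, Slc25a30 from -0.060 to 0.32, Slc25a32 from -0.0074 to 0.32 and Slc25a39 from -0.023 to 0.075. Over the 30 members and these alternatives, a call was lost 24 times and gained 10 times. The cause of these changes was not tested. No paired analysis was possible because the labels give the tumours no numbers that tie a vehicle sample to a RAPPD sample. Signal near background limits the tests of Slc25a22 and the 16 untested genes, and the probes of Slc25a35 and Slc25a42 were also dim.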
